A study of Rattus norvegicus with 4 samples.

Results

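The miR-99, miR-100 and miR-125 miRNAs were followed in rat prostate through 6 probes, chosen by name from the 679 miRNA probes of an array: rno-miR-99a, rno-miR-99b, rno-miR-100, rno-miR-125a-5p, rno-miR-125b-5p and rno-miR-125a-3p, written here without the rat prefix rno-. All 6 were on the array, and each had 1 spot. The groups were ventral prostate after OBP-801, ventral prostate after saline, lateral prostate after OBP-801 and lateral prostate after saline, with 1 array and so no replicate in each. OBP-801 inhibits histone deacetylases, the enzymes that take acetyl groups off histones. All animals were male TRAP rats, in which a probasin promoter drives a viral T antigen in prostate epithelium, on a control diet. They were 6 weeks old at the start and were injected intravenously 2 times a week for 8 weeks. The treatment protocol gives the dose as 1 mg per kg, and the label of the agent gives 1 mg. How many rats stand behind an array is not in the labels, and prostate tissue was extracted, so fewer cells of a type and less miRNA per cell cannot be told apart.

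A miRNA guides silencing complexes to messenger RNAs that pair with its seed, bases 2 to 8 of the mature strand. The miR-99 and miR-100 miRNAs are known to repress MTOR and are often low in human prostate cancer, while miR-125 miRNAs, the mammalian relatives of worm lin-4, are known for roles in development, blood cells and apoptosis. In mammals these genes lie in clusters with let-7 genes, each cluster holding a miR-99 or miR-100 gene, a let-7 gene and a miR-125 gene. A precursor hairpin yields a 5p and a 3p strand, and usually the 5p strand of miR-125a is the abundant one.

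RefSeq sequences on build GRCr8 were matched by name for 5 of the 6 members. They are shown to separate the seed groups, with the seed in capitals, 5′ to 3′.
miR-99b: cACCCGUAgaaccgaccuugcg
miR-100: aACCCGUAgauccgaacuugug
miR-125a-5p: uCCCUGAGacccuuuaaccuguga
miR-125b-5p: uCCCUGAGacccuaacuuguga
miR-125a-3p: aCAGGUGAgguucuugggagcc
The first pair shares a seed and differs at 4 of 22 bases, written C1A, A11U, C16A and C21U from miR-99b to miR-100, counted from the 5′ end. The miR-125 5p strands share another seed and their first 13 bases. The 3p strand of miR-125a has a seed of its own, so it belongs to the group by its hairpin and not by its seed. Probes for such close relatives may share signal, which was not tested.

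On GRCr8, miR-99b lies at chr1:67350070-67350091, miR-125a-5p at chr1:67350689-67350712 and miR-125a-3p at chr1:67350727-67350748, all on the plus strand, with the hairpin of let-7e between them. The hairpins of let-7e and miR-125a start 165 and 611 bases after that of miR-99b, and the 3 overlap the protein-coding gene Spaca6. The mature miR-100 lies at chr8:50798307-50798328 on the plus strand. The hairpins of let-7a-2 and miR-125b-1 start 6908 and 51741 bases after that of miR-100, and all overlap the genes Mir100hgl and Lnc215. On chromosome 11 the hairpin of let-7c-1 starts 720 bases after that of miR-99a, and miR-125b-5p of Mir125b2, at chr11:29732588-29732609 on the plus strand, starts 45196 bases after it. These genes overlap a long non-coding RNA gene. A probe for miR-125b-5p cannot tell which of its genes the miRNA came from, and exons and introns were not used here.

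Detection on an array means a spot brighter than the blank spots' mean by over 2 of their SD, a limit of 116.44 in ventral OBP-801, 123.93 in ventral saline, 129.07 in lateral OBP-801 and 124.61 in lateral saline. Between 290 and 329 miRNAs were detected per array and 242 on all 4. All 6 members were detected on all arrays, also at a limit with 4 times that distance from the blank mean, so none of them rests on a spot near the blank level. Over the 8 spots of each spike control, the SD within an array was 0.0365 to 0.2 on the log2 scale, which is the only spread between like spots that the arrays hold at high brightness. Over the dim control probes it was 0.0653 to 0.293. The scanner files number the saline arrays as cell 1 and the OBP-801 arrays as cell 2, so the agent cannot be told apart from the place on the slide.

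The miR-99a probe had a spot signal of 1707 in ventral OBP-801 and 1259 in ventral saline, and of 2720 in lateral OBP-801 and 1728 in lateral saline. It was brighter on the OBP-801 array in either lobe. After background correction and quantile normalization, which give the normalized log2 values used from here on, it stood at 11.02 in ventral OBP-801, 10.54 in ventral saline, 11.02 in lateral OBP-801 and 10.74 in lateral saline. In normalized value, the order of its levels was the OBP-801 arrays first and level with each other, then lateral saline, then ventral saline. The differences between OBP-801 and saline were 0.48 in ventral prostate, or 1.39-fold, and 0.28 in lateral prostate, or 1.21-fold.

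The miR-100 probe, with the same seed as miR-99b, had a signal of 1476 in ventral OBP-801 and 1163 in ventral saline, and of 2223 in lateral OBP-801 and 1330 in lateral saline. Its normalized values were 10.65 in ventral OBP-801, 10.26 in ventral saline, 10.60 in lateral OBP-801 and 10.14 in lateral saline. The OBP-801 arrays again held the higher values, and here ventral saline stood above lateral saline. The differences were 0.39 (1.31-fold) in ventral and 0.47 (1.38-fold) in lateral prostate. In the authors' deposited table miR-100 had 482.6 in ventral OBP-801 and 473.3 in ventral saline, a log2 difference of 0.03, and there the median of all miRNAs was -0.47. The ventral difference of miR-99a in that table was 0.13.

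The miR-99b probe was the dimmest of the 6, with a signal of 214.6 in ventral OBP-801 and 235.1 in ventral saline, and of 294.6 in lateral OBP-801 and 273.6 in lateral saline. Its normalized values lay within 0.20 of each other on the 4 arrays, a narrower range than that of 196 of the 242 miRNAs detected on all arrays. OBP-801 minus saline was -0.11 in ventral and -0.02 in lateral prostate. This miR-99 miRNA of the chromosome 1 cluster thus did not show the higher OBP-801 values of miR-99a and miR-100.

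The miR-125b-5p probe was the brightest of the 6, with a signal of 3988 in ventral OBP-801 and 2781 in ventral saline, and of 2746 in lateral OBP-801 and 3010 in lateral saline. Ventral OBP-801 stood highest and lateral OBP-801 lowest, with both saline arrays between them. Its normalized values were 12.05 in ventral OBP-801, 11.73 in ventral saline, 11.08 in lateral OBP-801 and 11.58 in lateral saline, a range of 0.97 that only 15 of the 242 miRNAs exceeded. OBP-801 minus saline was 0.31 (1.24-fold) in ventral prostate and -0.50 in lateral prostate, where saline was 1.42-fold higher.

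The miR-125a-5p probe, which reads the other miRNA with this seed, had a signal of 672.5 in ventral OBP-801 and 634.9 in ventral saline, and of 911.5 in lateral OBP-801 and 671.6 in lateral saline. The normalized values were 9.47 in ventral OBP-801, 9.29 in ventral saline, 9.47 in lateral OBP-801 and 9.34 in lateral saline. OBP-801 minus saline was 0.18 in ventral and 0.13 in lateral prostate, so it was among the steadiest members. Both it and miR-99a had the same rank on the OBP-801 arrays, which quantile normalization turns into the same value.

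The miR-125a-3p probe differed from its sister strand. Its signal was 255.3 in ventral OBP-801 and 424.0 in ventral saline, and 392.1 in lateral OBP-801 and 460.6 in lateral saline. It was dimmer on the OBP-801 array in either lobe. The normalized values were 7.97 in ventral OBP-801, 8.70 in ventral saline, 8.22 in lateral OBP-801 and 8.74 in lateral saline. OBP-801 minus saline was -0.74 in ventral prostate, where saline was 1.67-fold higher, and -0.53 in lateral prostate, where saline was 1.44-fold higher.

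**Figure D1:**
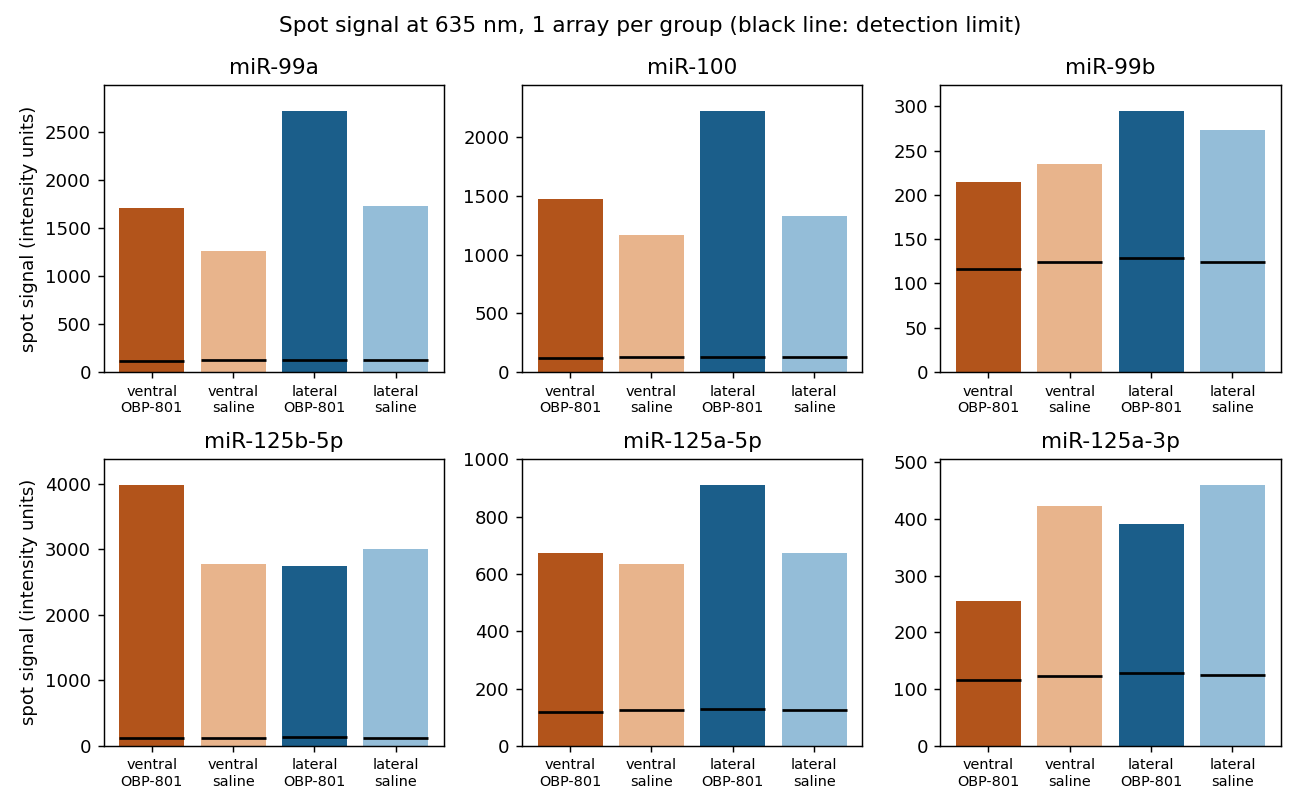
Spot signal (median brightness in scanner units) of the 6 members (y axis, linear, from 0) on the 4 arrays (x axis), 1 bar per array, with the array's detection limit as a black line. The bars of miR-99a and miR-100 are taller for OBP-801 than for saline in either lobe, those of miR-125a-3p are shorter, and the bar of miR-125b-5p is tallest for ventral OBP-801, at 3988.

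In ventral prostate, OBP-801 against saline, miR-99a, miR-100 and miR-125b-5p were higher and miR-125a-3p was lower by at least 1.2-fold, a threshold chosen with the values known. That is 3 of 6 members higher and 1 lower. Of all 260 miRNAs detected on both arrays, 13.1% were higher and 18.1% were lower at this threshold. At 2-fold 0 of 6 members passed in either direction, against 0.769% of all miRNAs higher and 0.0% lower. By sign alone 4 of 6 members were above 0 and 2 below, against 47.3% and 52.7% of all miRNAs. The members' median difference was 0.25, beside -0.02 over the 260, whose spread, the scaled median absolute deviation, was 0.26. Only 11 miRNAs had a larger positive difference than miR-99a, 15 than miR-100 and 25 than miR-125b-5p. At the other end, 4 miRNAs lay below miR-125a-3p. Among the 137 miRNAs detected at the limit with 4 times the distance from the blank mean, the spread was 0.34. With the blank level subtracted it was 0.46 over the 260. In the authors' deposited table, where the median of all miRNAs was -0.47, 0 members were higher and 2 lower at 1.2-fold. With print block medians removed, 2 were higher and 1 lower. With 1 array a group there is no test of these differences.

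In lateral prostate, OBP-801 against saline, miR-100 and miR-99a were higher and miR-125a-3p and miR-125b-5p were lower by at least 1.2-fold. That is 2 of 6 members in each direction, against 12.9% higher and 15.1% lower among the 271 miRNAs that both arrays detected. At 2-fold 0 of 6 members passed, against 0.369% of all miRNAs in either direction. By sign alone 3 of 6 members were above 0 and 3 below, against 47.2% and 48.7% of all miRNAs. With no normalization, and with spike control scaling, 3 members were higher and 1 lower at 1.2-fold, and miR-125b-5p was at -0.14 and -0.20. The median over all miRNAs was 0.19 and 0.13 under these settings. With print block medians removed, 1 was higher and 2 were lower. The members' median was 0.05, beside 0.00 over the 271 with a spread of 0.23. The difference of miR-100 was exceeded by 12 miRNAs and that of miR-99a by 28. Below miR-125a-3p lay 12 miRNAs and below miR-125b-5p 14. The spread was 0.29 among the 148 miRNAs detected at the stricter limit, and 0.45 over the 271 with the blank level subtracted.

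**Figure D2:**
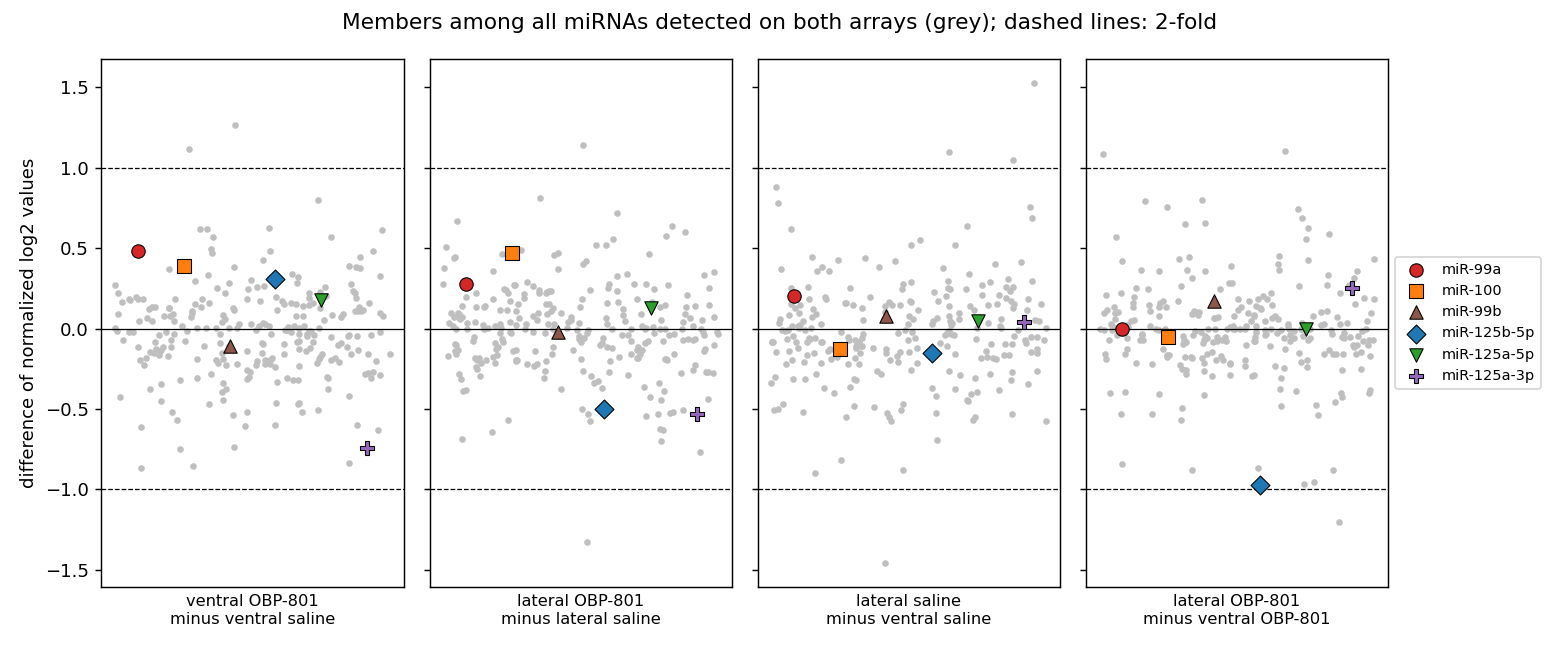
Difference of normalized log2 values (y axis) for the 6 members (coloured symbols) among all miRNAs detected on both arrays (grey points, spread sideways at random), in 4 comparisons of single arrays, with dashed lines at 2-fold. Every member lies between the dashed lines, and miR-125b-5p comes nearest to one, at -0.97 for lateral against ventral OBP-801.

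With the lobes in an additive fit (limma on the 242 miRNAs, with terms for agent and lobe and 1 residual degree of freedom), 0 of the 242 miRNAs, or 0.0%, had an adjusted p under 0.05 for OBP-801 against saline, and 40, or 16.5%, an unadjusted p under 0.05. Of the members, miR-125a-3p had -0.63 (SE 0.10, unadjusted p = 0.00542, limma adjusted p = 0.153), lower in 2 of 2 lobes. That of miR-100 was 0.43 (SE 0.09, unadjusted p = 0.012, limma adjusted p = 0.191) and that of miR-99a 0.38 (SE 0.10, unadjusted p = 0.0261, limma adjusted p = 0.24), each higher in 2 of 2 lobes. None of the 6 passed the adjusted threshold. The other members had limma adjusted p-values of 0.408 for miR-125a-5p, 0.669 for miR-99b and 0.831 for miR-125b-5p. With scaling on the spike controls in place of quantile normalization, the limma adjusted p-value was 0.0349 for miR-99a, at 0.55. It was 0.0393 for both miR-100, at 0.54, and miR-125a-3p, at -0.54, with 18 of the 242 miRNAs under 0.05. That setting gave the lowest limma adjusted p-values of the 10 alternatives for these members. The highest were 0.885 for miR-99a and for miR-100, and 0.689 for miR-125a-3p. The fit takes its error from how unlike the responses of the lobes were, so a miRNA that differed alike in both has a small SE.

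Among the 6 members, the lobes' responses to OBP-801 lay farthest apart for miR-125b-5p, by -0.82 as lateral minus ventral. Over the 242 miRNAs this difference had a median of 0.03 and a spread of 0.25, and 4 miRNAs lay below miR-125b-5p. For the other members it lay between -0.20 for miR-99a and 0.21 for miR-125a-3p, within that spread. The difference was not tested, since no group has a second array.

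Between the lobes after OBP-801, lateral against ventral, miR-125b-5p was the only member past 1.2-fold, at -0.97, so that ventral prostate was 1.96-fold higher. At this threshold 12.9% of the 271 miRNAs were higher and 11.4% lower in lateral prostate, and 1 miRNA lay below miR-125b-5p. The signals behind this were 2746 in lateral and 3988 in ventral OBP-801. Over 10 alternatives the difference lay between -0.99 and -0.54, where -0.54 came from spike control scaling. At 2-fold 0 of 6 members passed, against 0.738% of all miRNAs higher and 0.369% lower. The next largest member difference was that of miR-125a-3p, at 0.25. With no normalization, spike control scaling or the authors' deposited table, the 5 other members were higher by at least 1.2-fold. Among them miR-99a was at 0.67, 0.69 and 0.72. The median over all miRNAs was then 0.28, 0.29 and 0.50, itself past 1.2-fold, so most miRNAs passed it too. After saline, the 6 members lay between -0.15 for miR-125b-5p and 0.20 for miR-99a. At 1.2-fold 0 of 6 passed in either direction, against 12.5% of 255 miRNAs higher and 19.2% lower. At 2-fold it was again 0 of 6, against 1.18% higher and 0.392% lower. With spike control scaling 3 members were higher at 1.2-fold, where the median over all miRNAs was 0.14. The comparisons of lobes and of agents use the same 4 arrays, so the low lateral OBP-801 value of miR-125b-5p enters both. Lobe and slide cannot be told apart, since the ventral arrays carry one slide code and the lateral arrays another. In the additive fit for lateral against ventral, 0.0% of the 242 miRNAs passed an adjusted p of 0.05 and 16.5% (40 miRNAs) an unadjusted one, and miR-125b-5p had -0.56 (SE 0.23, limma adjusted p = 0.381).

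The hairpin of miR-125a is shown because the values of its arms lay far apart. Their differences had opposite signs in both lobes, except in the authors' deposited table, where both were negative in ventral prostate, at -1.40 for miR-125a-3p and -0.24 for miR-125a-5p. It lies at chr1:67350675-67350759 on the plus strand of GRCr8, and capitals mark the 5p strand, bases 15 to 38, and the 3p strand, bases 53 to 74.
Mir125a: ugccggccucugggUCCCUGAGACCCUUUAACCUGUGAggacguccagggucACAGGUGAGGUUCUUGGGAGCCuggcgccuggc
Both strands come from this 1 precursor. The response of miR-125a-3p to OBP-801 minus that of miR-125a-5p was -0.92 in ventral and -0.65 in lateral prostate. Both arms of 49 precursors were detected on all arrays, a comparison chosen after the values were seen, and the median size of this gap was 0.19 in ventral and 0.21 in lateral prostate. A larger gap was found for 2 of the 49 in ventral prostate and for 1 in lateral prostate. Probes of the 2 strands differ in brightness, and no ratio of their levels was taken.

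**Figure D3:**
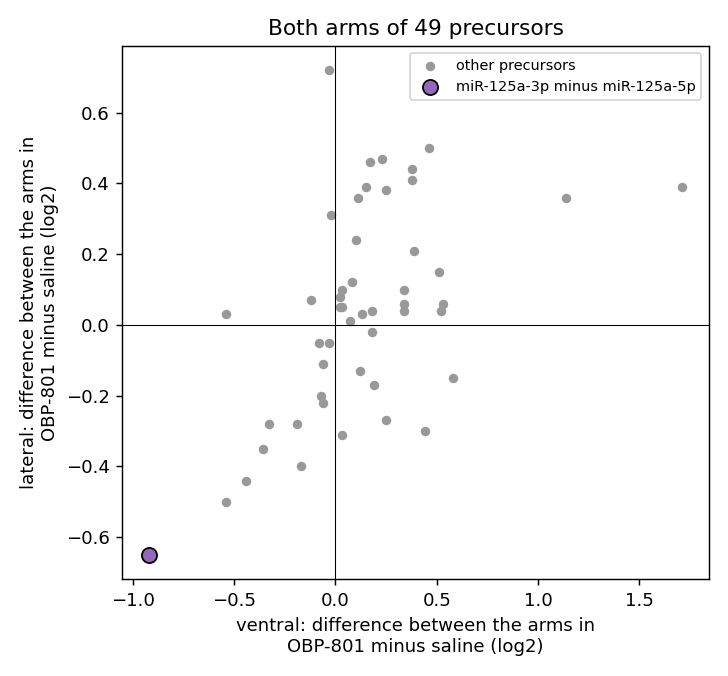
Gap between the arms of a precursor in the response to OBP-801 (3p minus 5p, or starred minus unstarred name, log2) in ventral (x axis) and lateral prostate (y axis), 1 point for each of 49 precursors. The point for miR-125a, at -0.92 and -0.65, is the lowest on the y axis.

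The let-7 miRNAs of the clusters, known for promoting differentiation, were set beside their neighbours. Next to miR-99a, let-7c had a signal of 8922 in ventral OBP-801 and 3068 in ventral saline, and of 12202 in lateral OBP-801 and 10588 in lateral saline. Its normalized differences between OBP-801 and saline were 1.27 in ventral and -0.44 in lateral prostate. The lateral direction turned with the scaling, to 0.21 with no normalization, 0.14 with spike control scaling and 0.03 in the authors' deposited table. That of miR-99a was positive in both lobes under every setting run. The lateral minus ventral response of let-7c, at -1.71, was the lowest of the 242 miRNAs.

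Beside miR-100, let-7a went the other way in normalized value, with -0.44 in ventral and 0.64 in lateral prostate. The spots behind these values read 8397 in ventral OBP-801 and 9331 in ventral saline, and 13022 in lateral OBP-801 and 6762 in lateral saline. The ventral difference of let-7a was -0.15 with no normalization, -0.11 with spike control scaling and -0.08 with median centring. It was -0.5 in the authors' deposited table. The lateral difference of let-7a was positive under every setting run. With no normalization, spike control scaling or the deposited table, that of let-7c was positive too. Under those settings the 2 miRNAs went opposite ways in ventral prostate only. The miRNAs let-7c and let-7a differ by 1 of 22 bases, G19A from let-7c to let-7a, and each is also made from a gene outside these clusters. In the chromosome 1 cluster, let-7e had -0.14 in ventral and 0.04 in lateral prostate, where its neighbour miR-99b had -0.11 and -0.02. Of the 3 cluster partners 1 was at least 2-fold higher in ventral prostate, and 0 passed 2-fold in lateral prostate. Over all miRNAs, 0.769% were 2-fold higher and 0.0% lower in ventral prostate, and 0.369% in each direction in lateral prostate.

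**Figure D4:**
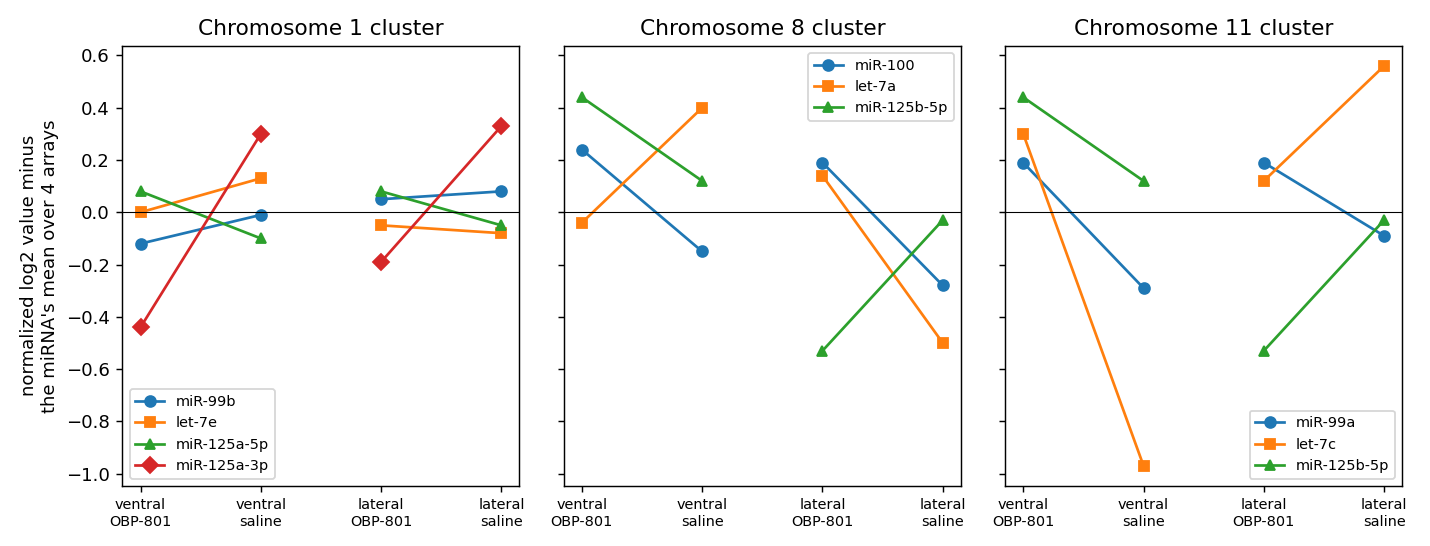
Normalized log2 value of each miRNA minus its own mean over the 4 arrays (y axis) on the 4 arrays (x axis), by genomic cluster, with lines joining OBP-801 and saline of a lobe. In the chromosome 1 cluster miR-99b, let-7e and miR-125a-5p stay near 0 while miR-125a-3p is at -0.44 and 0.30 in ventral OBP-801 and saline. In the other clusters miR-125b-5p, which both can make, has its lowest point in lateral OBP-801, at -0.53.

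Of the minor strands of these hairpins and of let-7a and let-7c, 9 of 11 listed were on the array, let-7c-2* only through a probe shared with let-7a-1*. That shared probe was detected on all 4 arrays, with a signal of 122.9 in ventral OBP-801 and 145.7 in ventral saline, and of 157.3 in lateral OBP-801 and 139.2 in lateral saline. Its differences between OBP-801 and saline were -0.19 in ventral and 0.01 in lateral prostate, and no other listed strand was detected on both ventral arrays. In lateral prostate miR-99b* had -0.10 and miR-125b* -0.09 between OBP-801 and saline. The miR-99b* signal was 140.8 in lateral OBP-801 and 133.9 in lateral saline, just above the limits. The strands miR-99a*, miR-100* and miR-125b-3p were detected on 0 arrays.

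Among all mature sequences in the RefSeq table, 1 other shared a member's seed, miR-351, an X-linked miRNA shown to mark the shared bases.
miR-351: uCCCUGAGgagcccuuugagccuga
It shares its first 8 bases with miR-125a-5p and miR-125b-5p. Its signal was 156.8 in ventral OBP-801 and 157.2 in ventral saline, and 189.9 in lateral OBP-801 and 139.9 in lateral saline. The differences between OBP-801 and saline were 0.10 in ventral and 0.26 in lateral prostate, and so did not follow the lateral value of miR-125b-5p. The miR-351 probe was dim, however, with 139.9 against a detection limit of 124.61 in lateral saline. From the strand opposite to Mir125b2 comes miR-3588, the reverse complement of miR-125b-5p, shown for that reason and chosen by its sequence.
miR-3588: uCACAAGUuagggucucaggga
It was not detected on any array, with a signal of 96.4 in ventral OBP-801, 118.6 in ventral saline, 102.9 in lateral OBP-801 and 105.4 in lateral saline.

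The miRNAs most like each member were taken as those with the smallest distance between mean-centred log2 values over the 4 arrays, among 236 other miRNAs. Nearest to miR-99a were miR-126, an endothelial miRNA (distance 0.102), miR-199a-5p of fibroblasts (0.122) and miR-328b-3p (0.14), where the median distance was 0.514. Nearest to miR-100 were miR-667 (0.087), miR-214 of fibroblasts (0.11) and miR-328a (0.118), where the median was 0.528. Between members the closest pair was miR-99a and miR-100, at 0.241. Of their cluster neighbours, let-7c ranked 222 from miR-99a and let-7a 164 from miR-100. From miR-99b, its neighbour let-7e ranked 79, at a distance of 0.26 where the median was 0.318.

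The miR-125a-3p profile lay closest to that of miR-93, of a proliferation-associated cluster, at 0.0559, with miR-140* at 0.192 and miR-18a at 0.235. The median distance from miR-125a-3p was 0.719. Around miR-125b-5p no close match was found, with let-7f at 0.334, miR-146a at 0.409 and miR-375* at 0.41. The flat profile of miR-99b was closest to those of let-7i (0.0414), miR-7a-1* (0.0451) and miR-30a (0.0676), and that of miR-125a-5p to those of miR-3594-5p (0.0541), miR-192 (0.0592) and miR-128-1* (0.0615). With 4 arrays these distances describe the arrays only.

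Markers of cell types were set beside the members. Of 8 stromal probes, 6 were detected on both ventral arrays, with 5 above 0 and a median of 0.25 for OBP-801 minus saline, and 7 on both lateral arrays, with 6 above 0 and a median of 0.27. Of all miRNAs, 47.3% of 260 in ventral and 47.2% of 271 in lateral prostate were above 0. Their summed signal above the blank level was 7985 in ventral OBP-801 and 6741 in ventral saline, and 17500 in lateral OBP-801 and 9412 in lateral saline. The sum of the stromal markers, which was not normalized, was thus higher after OBP-801 in both lobes. Its brightest probes were miR-143 and miR-145. In lateral prostate the miR-145 signal was 8084 after OBP-801 and 2821 after saline. Normalized, miR-145 went opposite ways, at -0.31 (ventral) and 1.14 (lateral), while miR-143 was at 0.16 (ventral) and 0.00 (lateral). That 0.00 comes from an equal rank on the lateral arrays, where the miR-143 signal was 7378 after OBP-801 and 5500 after saline. The other stromal probes detected on both arrays of a lobe were above 0 there. The endothelial pair miR-126 and miR-126* summed to 1337 in ventral OBP-801 and 970.4 in ventral saline, and to 2237 in lateral OBP-801 and 1336 in lateral saline.

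Of the epithelial markers that a prostate lobe should hold, all 7 were detected on every array. Their median OBP-801 minus saline was -0.15 in ventral and 0.00 in lateral prostate. Below 0 were 5 of the 7 in ventral and 3 in lateral prostate, against 52.7% and 48.7% of all miRNAs. Above 0 were 2 in ventral and 1 in lateral prostate. On the lateral arrays miR-200a, miR-200b and miR-429 each kept their rank, which quantile normalization turns into a difference of 0.00. The miR-200b signal there was 38562 after OBP-801 and 24427 after saline. Going the other way, miR-205 had 0.62 in ventral and 0.58 in lateral prostate, with 4 of 260 and 6 of 271 miRNAs higher. In ventral prostate miR-200b was also above 0, at 0.27. The summed signals of the 7 were 35180 in ventral OBP-801 and 42620 in ventral saline, and 75730 in lateral OBP-801 and 58270 in lateral saline. The 5 leukocyte probes on the array summed to 1003 in ventral OBP-801 and 1281 in ventral saline, and to 672.2 in lateral OBP-801 and 715.8 in lateral saline. By normalized value 4 of the 5 were below 0 in each lobe, beside the same shares of 52.7% and 48.7%. The exceptions were miR-150 in ventral prostate, at 0.38, and miR-223 in lateral prostate, at 0.04. The erythroid miR-451 was detected on all 4 arrays, with a signal of 241.8 in ventral OBP-801 and 252.1 in ventral saline, and of 437.6 in lateral OBP-801 and 292.1 in lateral saline. Between OBP-801 and saline it differed by -0.04 in ventral and by 0.56 in lateral prostate, where 7 of 271 miRNAs had a larger one. The stromal miR-214*, the erythroid miR-144 and the liver miR-122 were detected on 0 arrays. Striated muscle and neuron markers had medians of 0.14 and -0.28 for OBP-801 minus saline in ventral, and -0.17 and -0.13 in lateral prostate. After OBP-801, lateral minus ventral medians were -0.53 for 5 leukocyte probes and 0.84 for 2 striated muscle probes, and miR-451 was at 0.75. They were 0.20 for epithelial, 0.10 for stromal, 0.11 for endothelial and -0.04 for neuron markers. The part of these cell types in the members' differences was not tested.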

How the data were processed

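RNA carrying the dye Hy5 was put on miRNA arrays of 1 colour, per the labels' protocols. The deposited scanner files hold the median intensity of each spot and of its local background, per the file headers, neither corrected nor normalized. The authors' deposited value table also holds intensity values. Its values ran linearly with the scanner's spot medians, with 0 near the blank level and a median of 25 on each array, and it served as an alternative. How it was made is not given in the sources used here.

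As a first step, the normexp correction of limma 3.58.1 (R 4.3.3) was applied to every spot, with 50 as its offset. Control spots were left out, and 1 faulty spot of another miRNA was set to missing. Values were put on the log2 scale and quantile-normalized. The offset understates differences of dim miRNAs. Differences of single arrays have no p-value. The additive fit used lmFit, eBayes and Benjamini-Hochberg adjustment over 242 miRNAs. It was also run on simulated data in which a miRNA's response was the same in both lobes apart from noise. That run cannot show whether the p-values hold where the lobes respond differently. All 6 members were named whatever their values, with let-7 neighbours, other strands, seed mates and the 3 nearest profiles of each member. The members, lists and rules were chosen with earlier results of these data known. The alternatives were other background corrections, scalings and filters and the deposited table, and precision is limited by how few arrays there are.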

Additional observations from a re-analysis of the deposited data

Results flagged for a closer look

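The response of miR-125b-5p to OBP-801 went opposite ways in the lobes, with -0.50 in lateral and 0.31 in ventral prostate, a difference of -0.82. It is listed because the single array pair of one lobe moved up and that of the other moved down, and the difference was not tested. Over 10 alternatives it lay between -1.02 and -0.51. Of the other members none had opposite signs in the lobes with the report's main processing, but some did under an alternative. With no normalization miR-99b was at 0.14 in lateral and below 0 in ventral prostate. In the deposited table miR-125a-5p was at -0.24 in ventral and above 0 in lateral prostate.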

How the results depend on the processing

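Each value was recomputed under 10 alternatives. Relative to the median of all miRNAs in the same setting, miR-99a, miR-100 and miR-125a-5p were above it and miR-125a-3p below it in both lobes under all 11 settings, while miR-125b-5p was above it in ventral and below it in lateral prostate under all 11. The 3 scalings by a constant per array give equal relative values by construction, and 3 settings change only the filter. The gap between the arms of miR-125a lay between -1.16 and -0.68 in ventral and between -0.83 and -0.53 in lateral prostate.

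In the deposited value table the ventral median over all miRNAs was -0.47 and that of the members -0.11, with 1 member, miR-125a-3p, at least 2-fold lower at -1.40. With no normalization the members' lateral median was 0.30. For lateral against ventral OBP-801 the members' median, 0.00 in the report, was 0.53 with no normalization, 0.55 with spike control scaling and 0.68 in the deposited value table, where the medians over all miRNAs were 0.28, 0.29 and 0.50. The count of miRNAs with a limma adjusted p under 0.05 for OBP-801 was 2 with no background correction, 3 with the blank level subtracted, 4 with no normalization and 18 with spike control scaling. For lateral against ventral it was 1 in the deposited value table, 2 with no filter, 9 with print block medians removed, 16 with no background correction and 16 with the blank level subtracted, 19 with median centring, 28 with no normalization and 59 with spike control scaling. The cause was not tested.

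In the additive fit, signs turned for miR-125b-5p under OBP-801 with no normalization (0.19), median centring (0.09) and spike control scaling (0.18), and for miR-99b with print block medians removed (0.05). For lateral against ventral they turned for miR-100 with no normalization (0.39), median centring (0.20), spike control scaling (0.46, limma adjusted p = 0.0384) and the deposited value table (0.35), and for miR-125a-5p with print block medians removed (-0.02). In that comparison miR-99a passed the adjusted threshold with no normalization (0.57, limma adjusted p = 0.0481) and spike control scaling (0.64, limma adjusted p = 0.00523).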
